A study of Homo sapiens with 3 samples.

Results

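The regions described here are 1557 H3K4me3 peaks at the ends of long non-coding RNA (lncRNA) genes that also carry H3K27ac, out of 36951 H3K4me3 peaks on chromosomes 1 to 22 and X (4.21%). They were selected on measured values of the same libraries. Of the full list, 30979 peaks overlapped an H3K27ac peak by at least 1 bp, and 4460 of these also overlapped a window of 1 kb either side of an end of a RefSeq lncRNA gene. Leaving out windows of protein-coding genes left 1840, leaving out super-enhancers left 1587, and a width below 5000 bp left 1557. They lie at 1400 of 18177 lncRNA genes. The presence of both marks and the width limit are therefore the rule, not findings, and the levels below describe peaks that had to pass a peak caller.

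The study used ChIP-seq, the sequencing of DNA pulled down with an antibody to a chromatin mark. The cells were wild-type KBM7, an untreated, near-haploid human chronic myeloid leukaemia line grown in IMDM medium with 10% serum. There was 1 H3K27ac library (antibody Abcam ab4729), 1 H3K4me3 library (Millipore) and 1 input library. With 1 library per mark there is no replicate, so no value has a biological or technical spread, no test was run, and intervals cover counting error over peaks or genes only. As a check of the cell type, 10 of 10 myeloid and progenitor genes, among them SPI1, MPO and CD34, had both marks at a gene end. So did 60.4% of all protein-coding genes, which limits what this check can show. Among genes of other cell types, CD3E and COL1A1 had both marks at a gene end too, and MS4A1, HBB, ALB, DCX and DES did not.

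LncRNAs are transcripts without a long reading frame, made mostly by RNA polymerase II. H3K4me3 is placed on nucleosomes next to active or poised start sites, and H3K27ac marks both promoters and enhancers, so peaks of both marks are typical of promoters in use. Many lncRNA genes are the carriers of smaller RNAs in their introns or exons, such as small nucleolar RNAs (snoRNAs), which guide the modification of ribosomal RNA, and microRNAs, which repress messenger RNAs through a short seed. Others start back to back with a protein-coding gene or run antisense to one.

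The promoter sequences of 8 genes with a peak of both marks show the range of DNA met in the set. Each runs 5′ to 3′ in the direction of the gene, from 250 bases before the annotated start to 50 bases after it, and is taken from RefSeq on GRCh38.p14, the assembly of the hg38 files. The first pair shows a CpG-rich and a CpG-poor promoter, with every CpG in capitals. MIR210HG, the host of the hypoxia-induced miR-210, held 44 CpG in its 300 bases and had H3K4me3 and H3K27ac folds of 90.0 and 43.9. EGOT, a transcript first described in eosinophil development, held 2 and had folds of 5.39 and 10.5. The pair is an example only, since MIR193BHG, with an observed to expected CpG ratio of 0.0866 at its start, had an H3K4me3 fold of 71.7.
MIR210HG (chr11:568408-568707, minus strand): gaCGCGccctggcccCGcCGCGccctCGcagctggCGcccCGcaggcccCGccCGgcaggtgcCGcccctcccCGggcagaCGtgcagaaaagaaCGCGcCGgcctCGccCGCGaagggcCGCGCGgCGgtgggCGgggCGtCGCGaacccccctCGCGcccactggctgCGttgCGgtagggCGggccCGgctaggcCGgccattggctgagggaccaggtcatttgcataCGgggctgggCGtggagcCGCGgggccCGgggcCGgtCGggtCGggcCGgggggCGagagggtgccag
EGOT (chr3:4751541-4751840, minus strand): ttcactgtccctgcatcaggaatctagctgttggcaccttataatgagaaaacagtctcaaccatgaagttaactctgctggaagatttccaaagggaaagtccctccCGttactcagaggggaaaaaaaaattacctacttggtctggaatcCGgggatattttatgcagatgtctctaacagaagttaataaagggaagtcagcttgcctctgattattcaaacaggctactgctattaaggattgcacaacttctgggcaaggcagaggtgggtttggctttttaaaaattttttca
The next sequences are shown for short motifs, again in capitals, with positions counted from 0 at the annotated start. Only the matches named are in capitals, and others, such as an E-box in DLEU2 and RUNX letters in NORAD, are left unmarked. In NORAD, a lncRNA that binds Pumilio proteins, the capitals mark an E-box (CACGTG) at -138 and ETS letters (CCGGAAGT, on the other strand) at -47.
NORAD (chr20:36050911-36051210, minus strand): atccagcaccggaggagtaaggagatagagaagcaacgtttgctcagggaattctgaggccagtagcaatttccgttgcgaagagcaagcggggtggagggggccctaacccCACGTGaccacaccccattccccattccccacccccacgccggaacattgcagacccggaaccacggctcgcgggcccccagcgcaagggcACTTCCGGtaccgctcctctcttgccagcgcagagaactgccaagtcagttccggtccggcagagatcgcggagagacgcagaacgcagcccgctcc
In DLEU2, the host of miR-15a and miR-16-1, they mark a TATA core (TATAAA) at -33 and PU.1 letters (GAGGAAGT, on the other strand) at -8. PU.1, made by SPI1, is an ETS factor of myeloid cells.
DLEU2 (chr13:50125492-50125791, minus strand): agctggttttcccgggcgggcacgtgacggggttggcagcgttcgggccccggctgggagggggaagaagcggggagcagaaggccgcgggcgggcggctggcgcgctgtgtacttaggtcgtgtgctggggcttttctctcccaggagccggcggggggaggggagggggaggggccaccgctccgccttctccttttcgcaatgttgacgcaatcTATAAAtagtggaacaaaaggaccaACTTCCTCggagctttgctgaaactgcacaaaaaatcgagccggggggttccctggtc
In FTX, a gene of the X-inactivation centre, they mark NRF1 letters (GCATGCGC), a near palindrome that matched on both strands, at -9 and -11.
FTX (chrX:74293525-74293824, minus strand): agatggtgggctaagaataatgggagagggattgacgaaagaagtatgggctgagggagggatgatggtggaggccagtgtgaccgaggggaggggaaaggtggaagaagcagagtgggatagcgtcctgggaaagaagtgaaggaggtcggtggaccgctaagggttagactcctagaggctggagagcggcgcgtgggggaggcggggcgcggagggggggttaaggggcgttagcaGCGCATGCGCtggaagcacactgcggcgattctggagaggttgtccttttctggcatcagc
In OIP5-AS1, a broadly expressed lncRNA, they mark an E-box at -240 and YY1 letters (AAGATGGC) at 26, inside the transcript.
OIP5-AS1 (chr15:41283740-41284039, plus strand): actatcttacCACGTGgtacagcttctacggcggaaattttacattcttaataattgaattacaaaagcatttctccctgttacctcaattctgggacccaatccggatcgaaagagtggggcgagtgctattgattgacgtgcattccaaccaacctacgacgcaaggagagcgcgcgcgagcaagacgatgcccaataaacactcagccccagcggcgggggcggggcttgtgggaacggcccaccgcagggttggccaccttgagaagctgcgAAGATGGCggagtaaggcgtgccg
In MIR155HG, the host of the immune and leukaemia microRNA miR-155, they mark a TATA core at -44.
MIR155HG (chr21:25561895-25562194, plus strand): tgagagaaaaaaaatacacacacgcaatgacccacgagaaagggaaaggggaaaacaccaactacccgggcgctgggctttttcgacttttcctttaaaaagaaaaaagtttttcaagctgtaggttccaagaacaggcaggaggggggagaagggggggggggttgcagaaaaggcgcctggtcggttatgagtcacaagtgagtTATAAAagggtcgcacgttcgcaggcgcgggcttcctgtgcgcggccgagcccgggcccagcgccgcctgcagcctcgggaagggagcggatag
In SNHG5, a snoRNA host, they mark the 5 bases from the start, a C followed by T only, the kind of pyrimidine start known from ribosomal protein and snoRNA host genes. A C followed by pyrimidines over the first 5 bases was met at 4.64% of the 689 lncRNA start sequences in peaks of the set and 4.07% of all start sequences, and at 1 of the 8 listed snoRNA hosts with a start in such a peak.
SNHG5 (chr6:85678684-85678983, minus strand): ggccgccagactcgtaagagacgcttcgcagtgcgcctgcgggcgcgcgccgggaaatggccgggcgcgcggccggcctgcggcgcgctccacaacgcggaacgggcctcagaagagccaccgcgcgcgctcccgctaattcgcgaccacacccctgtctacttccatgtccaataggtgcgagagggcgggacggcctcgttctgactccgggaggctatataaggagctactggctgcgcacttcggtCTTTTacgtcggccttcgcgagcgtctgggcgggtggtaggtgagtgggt
Over all 34683 distinct RefSeq promoter sequences of this length, on both strands, the TATA core was found in 11.6%, the E-box in 7.22%, the ETS letters in 4.13%, NRF1 in 3.00%, YY1 in 2.89% and PU.1 in 2.60%. A match is a description of letters and does not show that a factor binds there.

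The microRNAs carried by these genes are shown for their shared seeds, with bases 2 to 8 in capitals, U for T and the coordinates of the mature sequence on GRCh38.p14. MIRLET7A1HG and MIRLET7IHG carry let-7 microRNAs, brakes on growth genes, that all have the seed GAGGUAG.
hsa-let-7a-5p (chr9:94175962-94175983, plus strand): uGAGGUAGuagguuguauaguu
hsa-let-7d-5p (chr9:94178841-94178862, plus strand): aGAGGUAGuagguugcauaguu
hsa-let-7f-5p (chr9:94176353-94176374, plus strand): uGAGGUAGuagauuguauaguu
hsa-let-7i-5p (chr12:62603691-62603712, plus strand): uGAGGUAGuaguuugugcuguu
DLEU2 and MIR497HG carry microRNAs of the miR-15 family, known to target cell cycle and survival genes, with the seed AGCAGCA. The miR-503 of MIR503HG differs from them in the last base of the seed.
hsa-miR-15a-5p (chr13:50049167-50049188, minus strand): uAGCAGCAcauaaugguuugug
hsa-miR-16-5p (chr13:50049027-50049048, minus strand): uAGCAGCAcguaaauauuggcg
hsa-miR-195-5p (chr17:7017667-7017687, minus strand): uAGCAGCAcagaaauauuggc
hsa-miR-497-5p (chr17:7017979-7017999, minus strand): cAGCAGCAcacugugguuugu
hsa-miR-503-5p (chrX:134546371-134546393, minus strand): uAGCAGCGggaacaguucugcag
MIR210HG, whose promoter is printed above, carries miR-210.
hsa-miR-210-3p (chr11:568112-568133, minus strand): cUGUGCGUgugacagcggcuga
The strongest peaks of the set at these hosts had H3K4me3 and H3K27ac folds of 67.7 and 47.2 at MIRLET7A1HG, 66.6 and 42.0 at MIRLET7IHG, 61.4 and 45.6 at DLEU2, 37.9 and 19.8 at MIR503HG, and 15.9 and 17.1 at MIR497HG. Among genes with a peak of the set, 27 of 1400 (1.93%, 95% Wilson interval 1.33 to 2.79) contained a microRNA hairpin of the RefSeq table, 37 hairpins in all. The share over the other 16777 lncRNA genes was 0.834% (0.708 to 0.984).

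The label of promoters could be borne out for only some of the peaks. The gene table has no strand for every gene, so the rule used both ends of each gene. A start of a lncRNA gene in the RefSeq promoter table lay inside 602 peaks (38.7%), in 465 without and in 137 with a protein-coding start. Another 40 peaks held a protein-coding start only, since alternative starts inside a long gene are not its ends. The remaining 915 (58.8%) held no start of that table, which gives starts for 11383 of the lncRNA genes and 15812 of 19974 protein-coding genes. Of these peaks, 398 lay only at genes of unknown strand, so whether they mark a start could not be judged. By strand, 889 peaks lay at a 5′ end, 259 at 3′ ends only and 409 at genes of unknown strand. The regions are therefore called peaks at lncRNA ends here.

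These classes had different levels of H3K4me3, the promoter mark. The authors' fold enrichment at the summit had a median of 38.6 (95% interval 33.2 to 41.8) in peaks with a lncRNA start only and 63.0 (59.6 to 65.2) in those with both kinds of start. It was 59.3 (48.6 to 70.2) with a protein-coding start only and 8.42 (7.81 to 9.08) with no start. For H3K27ac, taken as the fold of the strongest overlapping peak, the medians lay closer together, at 15.3, 21.7, 21.1 and 11.3. Peaks at 3′ ends only had a median H3K4me3 fold of 7.74, against 31.8 at 5′ ends, and H3K27ac folds of 11.8 and 14.9. Many of the peaks without a start lay beside a stronger H3K4me3 peak, with 288 of 915 (31.5%, 28.5 to 34.6) having one within 2 kb, against 41 of 465 (8.82%, 6.57 to 11.7) of those with a lncRNA start only.

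Set beside other peaks of both marks under the same limits, the peaks at lncRNA ends had the widest interquartile range of H3K4me3, though not the widest extremes. Their median fold was 17.1 (15.1 to 19.3), with an interquartile range of 6.30 to 48.1 and extremes of 2.29 and 97.3, which rests on a median of 63 fragments at the summit (24 to 187). The 8534 peaks at protein-coding ends had a median of 60.4 (59.8 to 61.0, quartiles 43.2 and 73.6), and the 2362 peaks at ends of both kinds of gene 64.2 (63.0 to 64.9). The 14338 peaks away from both had 6.08 (6.0 to 6.16). For H3K27ac the medians were 13.6 (12.6 to 14.1) at lncRNA ends, 20.6 (20.3 to 20.9) at protein-coding ends, 23 at ends of both and 9.91 away. The median width at lncRNA ends was 1045 bp (968 to 1117) and at protein-coding ends 2296 bp. Of the peaks at lncRNA ends 453 (29.1%, 26.9 to 31.4) reached the lower quartile of protein-coding ends for H3K4me3, and 794 (51.0%, 48.5 to 53.5) did so for H3K27ac. The ratio of the median at lncRNA ends to that at protein-coding ends was 0.283 for H3K4me3 and 0.659 for H3K27ac, each within its own list. With windows at 5′ ends only, for both kinds of gene, the ratios were 0.618 and 0.741. That setting no longer left out peaks at protein-coding 3′ ends or at protein-coding genes of unknown strand. It held 1044 peaks with a median H3K4me3 fold of 39.0, while the 889 peaks of the set at a 5′ end had 31.8. Among peaks that held a start of their own kind and, at lncRNA ends, no protein-coding start, the ratios were 0.588 and 0.682. Peaks at 3′ ends are part of the lncRNA set, and with 1 library per mark no test of the difference could be made. A further 459 H3K4me3 peaks at lncRNA ends had no H3K27ac, with a median fold of 7.89 (6.84 to 8.66) and a width of 430 bp.

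**Figure D1:**
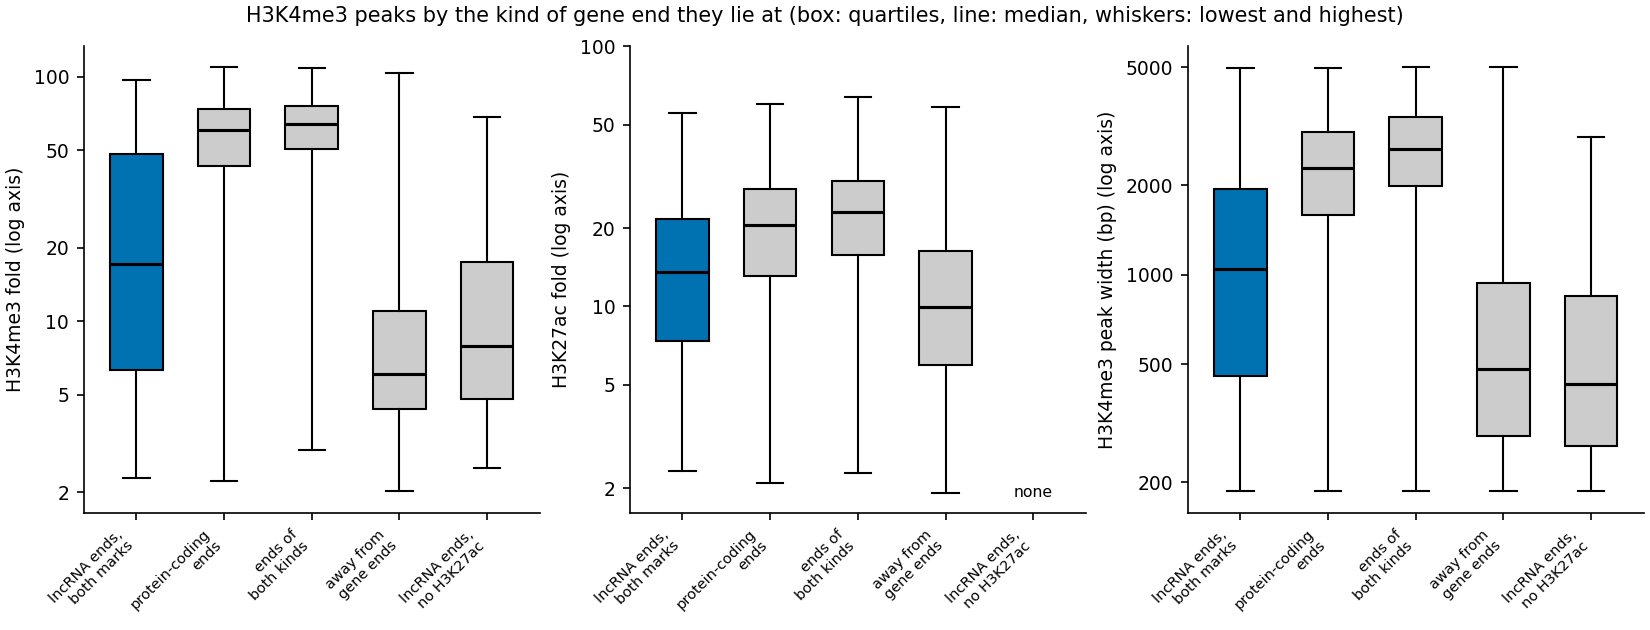
H3K4me3 fold, H3K27ac fold of the strongest overlapping peak, and H3K4me3 peak width (log axes) for peaks at lncRNA ends and for 4 other sets, as quartile boxes with the median and whiskers to the lowest and highest peak. The box of the lncRNA ends for H3K4me3 runs from 6.30 to 48.1, while that of the protein-coding ends runs from 43.2 to 73.6.

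Within the set both marks varied with each other and with width. Across the 1557 peaks, which come from 1 library per mark and are no replicates, Spearman's rho was 0.448 between the folds of the marks, 0.856 between H3K4me3 fold and width, and 0.506 between H3K27ac fold and width. In the 602 peaks with a lncRNA start the folds had a rho of 0.540, and in the 915 without a start 0.272. From the lowest to the highest quartile of H3K4me3 fold the median H3K27ac fold was 8.51, 10.5, 14.2 and 22, and the median width 304, 697, 1444 and 2288 bp. The share with a lncRNA start was 10.7%, 23.7%, 47.3% and 73.0%. H3K27ac covered a median of 95.4% of a peak and all of it in 645 peaks. The summit of the strongest H3K27ac peak lay inside the H3K4me3 peak in 1314 (84.4%). The other 243 were narrow and weak in H3K4me3, with a median width of 333 bp and fold of 4.68, and overlapped H3K27ac peaks with a median width of 2298 bp. The H3K27ac peaks are also not all separate, as 200 members shared their strongest one with another member.

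**Figure D2:**
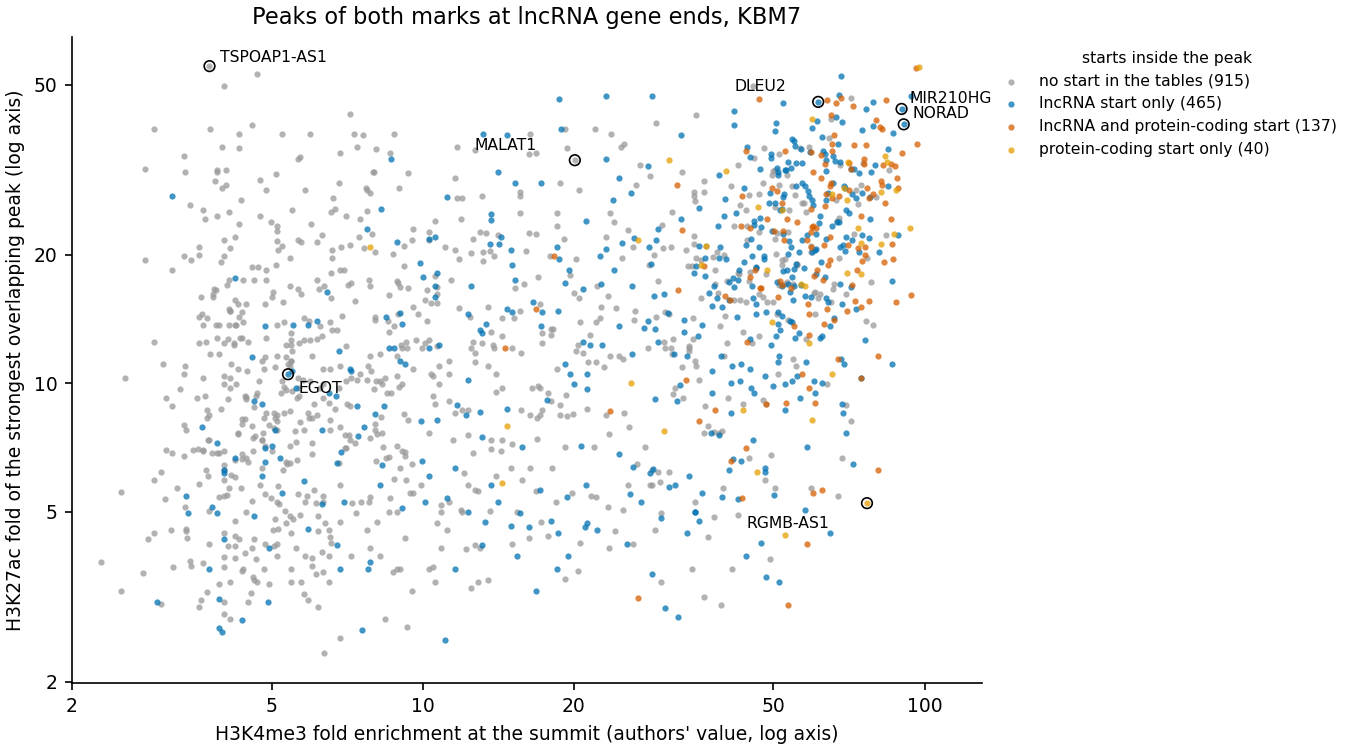
H3K4me3 fold against the fold of the strongest overlapping H3K27ac peak (log axes), 1 point for each of the 1557 peaks, coloured by the RefSeq starts that lie inside. The 915 peaks without a start had a median H3K4me3 fold of 8.42 (quartiles 5.02 and 21.8) and reached 84.8 at LOC105373335, and the 137 with both kinds of start lie at the right (median 63.0).

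The strongest peaks by H3K4me3 mostly lay inside protein-coding genes and held one of their starts. Of the 10 highest, 8 lay inside a protein-coding gene and 7 held a start of one. The highest was at LOC112267936 (chr5:154755201-154759489), inside LARP1, which encodes a binder of ribosomal protein mRNAs, with an H3K4me3 fold of 97.3 from 307 fragments and an H3K27ac fold of 54.9. It held a protein-coding start and no lncRNA start. Next came LOC124900302 in LRP5, a Wnt co-receptor (96.5 and 36.3), LOC124903251 in TUBGCP3, a gamma-tubulin complex protein (96.1 and 54.7), and LOC124902140 in APTX, a DNA repair enzyme (94.1 and 16.1), each with starts of both kinds. LOC105376225 in COL27A1 (93.7 and 23.1) held a protein-coding start only, and LOC124902314 in DPP7 (90.0 and 34.7) and HDLBP-AS1 in HDLBP (88.6 and 28.6) held both. LOC124904608 in CIMAP1D (94.1 and 47.1) held a lncRNA start only.

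Only NORAD and MIR210HG of those 10 lay outside protein-coding genes. At NORAD (chr20:36048020-36051619, 3600 bp) the summit held 269 H3K4me3 fragments for a fold of 90.9, and the strongest H3K27ac peak 169 for a fold of 40.4, 17319 bp from the nearest protein-coding gene, CNBD2. Its H3K27ac peaks covered 46.5% of the H3K4me3 peak. At MIR210HG (chr11:567079-569699, 2621 bp) the counts were 262 and 166 fragments for folds of 90.0 and 43.9, with 93.6% covered. Inside protein-coding genes as a whole, 619 peaks had a median H3K4me3 fold of 20.9 (17.3 to 28.4), and 9.82 (8.58 to 11.3) in the 442 of them without a protein-coding start of the RefSeq promoter table. The 938 peaks outside had 15.3 (13.1 to 17.8).

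The 10 highest H3K27ac values fell on strong promoters and on small H3K4me3 peaks inside wide acetylated regions alike. The highest was at TSPOAP1-AS1 (chr17:58326035-58326220), where an H3K4me3 peak of 186 bp with 10 fragments (fold 3.76) lay in an H3K27ac peak of 16366 bp with a fold of 55.3. LOC105376888 had folds of 4.67 for H3K4me3 and 53.0 for H3K27ac, and LINC03053, near the corepressor gene BCOR on chromosome X, had a small peak (4.01) and a larger one (45.6) in the same H3K27ac peak of fold 49.7. By contrast LINC01003 (68.3 and 52.3) and MIRLET7A1HG (67.7 and 47.2) were high in both marks and held a lncRNA start. LNCEGFL7OS, which shares its peak with LOC105376325 and LOC102724193, had folds of 23.2 and 47.0 in an H3K27ac peak of 25742 bp. The other 3 of these peaks, at LOC112267936, LOC124903251 and LOC124904608, were also among the 10 highest for H3K4me3.

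The percentile of each peak by either mark within the set shows where the marks parted. The H3K27ac fold is that of the summit of the overlapping peak, which can lie outside the H3K4me3 peak. It is therefore not always the level at the H3K4me3 peak itself. H3K27ac was farthest above H3K4me3 at LOC105378011, inside MYB, a transcription factor of blood progenitors, with an H3K4me3 fold of 2.91 from 12 fragments (percentile 0.578) and an H3K27ac fold of 39.3 (percentile 97.0). A neighbouring peak of the same gene had an H3K4me3 fold of 3.77 in the same H3K27ac peak of 19993 bp. TSPOAP1-AS1, LINC03053 and LOC105379243 in FDFT1 (3.34 and 34.1) followed. None of these 5 peaks held a start of the tables, which have no start for the lncRNA genes of unknown strand at 4 of them (all but TSPOAP1-AS1). H3K4me3 was farthest above H3K27ac at RGMB-AS1 (76.8 and 5.24), followed by LOC124903150 (64.8 and 4.46), EPB41L1-AS1 (53.5 and 3.03), MPP7-DT (80.7 and 6.27) and LOC729870 (58.4 and 4.21). Of these 5, 4 held a protein-coding start, and H3K27ac covered 7.81% to 42.6% of the peak.

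At the low end 5 peaks had H3K4me3 folds of 2.29 to 2.77 from 14 to 19 fragments, at LOC124901967, LOC124904059, LINC02069, LINC00102 and LOC124903916. None held a start of the tables, which have none for LOC124901967 and LOC124903916. The expected background there was 4.98 to 6.85 fragments, above the median of 2.66 in the set. The 5 lowest H3K27ac folds were 2.33 to 2.64, at LINC01562, GAS1RR, LOC124908064, LOC105371512 and LOC105373254, and 3 of them held a lncRNA start. GAS1RR, next to the growth arrest gene GAS1, had 72 H3K4me3 fragments (fold 11.1) beside 22 of H3K27ac (fold 2.51). Just inside the width limit were LINC02573 (4982 bp, H3K4me3 and H3K27ac folds 39.0 and 30.8), BAZ2B-AS1 (4929 bp, 72.4 and 36.1), LOC124904432 in the innate sensor gene IFI16 (4884 bp, 46.6 and 25.9), SNHG16 (4821 bp, 88.4 and 22.2) and RASSF3-DT (4783 bp, 49.6 and 28.7). Just outside were KANSL1-AS1 (5249 bp, 75.4 and 44.7), MIR23AHG (5280 bp, 93.6 and 46.7), LOC124901143 (5339 bp, 70.3 and 42.2), SENCR (5361 bp, 68.8 and 29.7) and ANXA2R-OT1 (5391 bp, 53.5 and 28.6).

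Seen from the genes, lncRNA genes carried both marks at an end less often than protein-coding genes. Of 18177 lncRNA genes 3931 did (21.6%, 21.0 to 22.2), against 12074 of 19974 protein-coding genes (60.4%, 59.8 to 61.1). A peak of the set lay at 1400 lncRNA genes (7.70%, 7.32 to 8.10), a share that the rule itself fixes. At 2323 lncRNA genes the peak was shared with a protein-coding end, at 178 it touched a super-enhancer and at 30 it was too wide. Another 634 had H3K4me3 without H3K27ac, and 13612 (74.9%) had no H3K4me3 at an end.

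The share with both marks differed by the kind of gene that the name records. Divergent transcripts (DT), which start back to back with a coding gene, had both marks at 489 of 591 (82.7%, 79.5 to 85.6), and at 463 of these the peak was shared with a protein-coding end, so only 24 entered the set. Numbered snoRNA hosts (SNHG) had them at 25 of 29 (86.2%, 69.4 to 94.5) and antisense genes (AS) at 851 of 2045 (41.6%, 39.5 to 43.8). The peak was shared with a protein-coding end at 14 of these SNHG and 581 of these AS genes. The named microRNA hosts had them at 35 of 87 (40.2%, 30.6 to 50.7). Intergenic LINC genes had them at 323 of 2301 (14%, 12.7 to 15.5), with 233 genes in the set, and genes known only by a LOC number at 1973 of 12316 (16.0%, 15.4 to 16.7). At 9 of the microRNA hosts, 55 of the LINC and 1066 of the LOC genes the peak was shared with a protein-coding end. A peak of the set, never shared in this way, lay at 11.7% of AS and 10.1% of LINC genes. In the set 859 peaks (55.2%) lay at LOC genes only, with median H3K4me3 and H3K27ac folds of 12.6 and 11.7. The other 698 had 28.7 and 15.8.

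SnoRNA host genes carried both marks nearly throughout. Of 30 listed genes 28 did (93.3%, 78.7 to 98.2), beside 21.6% of all lncRNA genes. In 16 the peak was shared with a protein-coding end, as at GAS5 and ZFAS1, 1 (SNHG32) was too wide, and 11 entered the set, with a median H3K4me3 fold of 65.5 over 13 peaks beside 17.1 over the whole set. The highest was at SNHG16 (H3K4me3 fold 88.4 from 282 fragments, H3K27ac fold 22.2), then SNHG26 (86.6 and 38.5), DANCR, which also has a smaller peak of 5.91 (79.5 and 32.4), SNHG30 (77.5 and 21.9), EPB41L4A-AS1 (73.1 and 28.3), SNHG17 (69.5 and 28.7) and SNHG11 (65.5 and 23.4). SNHG21 (42.3 and 14.3) and SNHG5 (40.7 and 17.3, with a neighbouring peak of 34.9 and 26.7) were lower. At SNHG29 (27.1 and 32.4) and SNHG15 (6.84 and 34.7) the member was a flanking peak. A peak of H3K4me3 fold 93.4 over the SNHG29 end counted as protein-coding, and one of 72.4 at SNHG15 was 5822 bp wide. SNHG18 had H3K4me3 alone (26.7), and SNHG14, a long transcript of an imprinted locus, had no H3K4me3 at an end.

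Among the microRNA hosts the marks were split between genes. Of 34 listed genes 18 had both marks (52.9%, 36.7 to 68.5), beside 21.6% of all lncRNA genes. Of these, 10 entered the set with a median H3K4me3 fold of 45.6 over 14 peaks. MIR210HG led (90.0 and 43.9), followed by MIR762HG (78.4 and 31.3), MIR193BHG (71.7 and 21.6), MIRLET7A1HG (67.7 and 47.2) and MIR1915HG (54.5 and 37.4). MIR155HG had 182 H3K4me3 and 159 H3K27ac fragments (47.0 and 31.7), and MIR181A2HG, a host of miR-181a, which is active in blood cell development, had 44.1 and 25.4. MIR503HG (37.9 and 19.8), MIR4435-2HG (17.8 and 9.47) and MIR497HG (15.9 and 17.1) were lower. MIR497HG also had a peak of H3K4me3 fold 69.3 at its other end, shared with a protein-coding gene. Outside the set by width were MIR17HG, host of an oncogenic cluster (77.8 and 36.7, 5840 bp), MIR23AHG, MIR181A1HG and MIR3142HG. MIR223HG, of the granulocyte microRNA miR-223, and MIR222HG lay in super-enhancers. Hosts of microRNAs known from other tissues, such as MIR133A1HG of muscle, MIR137HG and MIR9-1HG of neurons and MIR205HG of epithelia, were among 13 without H3K4me3 at an end, which also held MIR29B2CHG and MIR34AHG. Epithelial hosts were not all unmarked. MIR200CHG had both marks in a peak shared with a protein-coding end (7.23 and 41.8). MIR200BHG, which is not on the list, had a peak of the set (7.53 and 5.26) at its 3′ end, with no start inside. MIR31HG (46.8), MIR124-1HG (4.09) and MIR9-3HG (8.31) had H3K4me3 without H3K27ac.

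Of 30 lncRNAs chosen as widely expressed, 29 were matched and 24 of these had both marks (82.8%, 65.5 to 92.4), beside 21.6% of all lncRNA genes. In the set were 11, with a median H3K4me3 fold of 44.3 over 13 peaks. NORAD was followed by CHASERR, a neighbour and regulator of the chromatin remodeller gene CHD2 (79.1 and 45.6, with a second peak of 16.8 and 22.4), OIP5-AS1 (69.1 and 29.0) and DLEU2 (61.4 and 45.6). Of the X-inactivation centre, JPX had 57.7 and 29.0 and FTX 45 and 33.8. HCG11 (44.3 and 35.8), LINC01128 (40.4 and 17.4) and CYTOR (19.2 and 11.1) followed. MALAT1, an abundant RNA of nuclear speckles, entered through a flanking peak of 1244 bp (20.1 and 33.3), while its main H3K4me3 peak (fold 72.1) was 10438 bp wide. DLEU1 entered through 2 small peaks (4.58 and 4.69) at the far end from its main peak, which was 7206 bp wide with a fold of 53.0. NEAT1, of the paraspeckles, was outside by width (73.7 and 44.5, 11571 bp). No H3K4me3 at an end was found at KCNQ1OT1, LINC00667, NUTM2A-AS1, LINC00863 and SLC25A25-AS1.

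Of the lncRNAs linked to blood or leukaemia 24 of 30 carried both marks (80.0%, 62.7 to 90.5), but only 8 through a peak of the set. The share was 21.6% over all lncRNA genes, 33.4% over those without a LOC number and 82.8% in the widely expressed list. It was therefore not particular to the blood genes. The largest H3K4me3 folds were at LINC00173, known from granulocytes (64.2 and 27.9), CARINH, a neighbour of the interferon regulator gene IRF1 (62.5 and 37.8), and HOXA11-AS of the HOXA cluster (51.9 and 19.4). The HOXA11-AS peak lay at the 3′ end of the gene and held no start. A peak of H3K4me3 fold 61.4 at the other end counted as protein-coding. MIR155HG had 47.0 and 31.7. PVT1, the lncRNA next to MYC, had 300 H3K4me3 fragments and a fold of 42.9, with an H3K27ac fold of 15.7. It lies on chromosome 8, where the expected background at its peak was 6.02 H3K4me3 fragments, so that its fold is low for its count. MIR4435-2HG (17.8 and 9.47), MROCKI, near MARCKS (16.8 and 3.26), and EGOT (5.39 and 10.5) followed. HOTAIRM1, HOXA-AS3, HOTTIP and HOXB-AS1 had both marks in peaks shared with HOX genes, and CCDC26, MIR223HG, LINC00926 and LINC00899 in super-enhancers. HOXA-AS2, HOXB-AS3, MIR99AHG, LUCAT1, MEG3 and BGLT3 had no H3K4me3 at an end.

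By comparison 6 of 28 matched lncRNAs of other tissues had both marks (21.4%, 10.2 to 39.5), a share near the 21.6% of all lncRNA genes. In the set were PAX8-AS1, antisense to a thyroid and kidney factor (51.5 and 25.5), and PROX1-AS1, antisense to a lymphatic and liver factor (26.2 from 156 fragments, and 4.21 from 15, with 7.73% of the peak covered by H3K27ac). SIX3-AS1 was outside by width (84.5 and 40.5, 5080 bp), and HOTAIR, PANTR1 and GATA6-AS1 shared their peaks with protein-coding ends. FENDRR, SOX21-AS1, NKX2-1-AS1 and MIR124-1HG had H3K4me3 only, with folds of 4.09 to 29.8. The other 18, among them H19, SOX2-OT, PCA3 and HULC, had no H3K4me3 at an end. Over all 5 lists 40 genes had a peak of the set, and at 33 of them it was also the strongest H3K4me3 peak at either end. The exceptions were DLEU1, HOXA11-AS, MALAT1, MIR497HG, MIR762HG, SNHG15 and SNHG29.

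**Figure D3:**
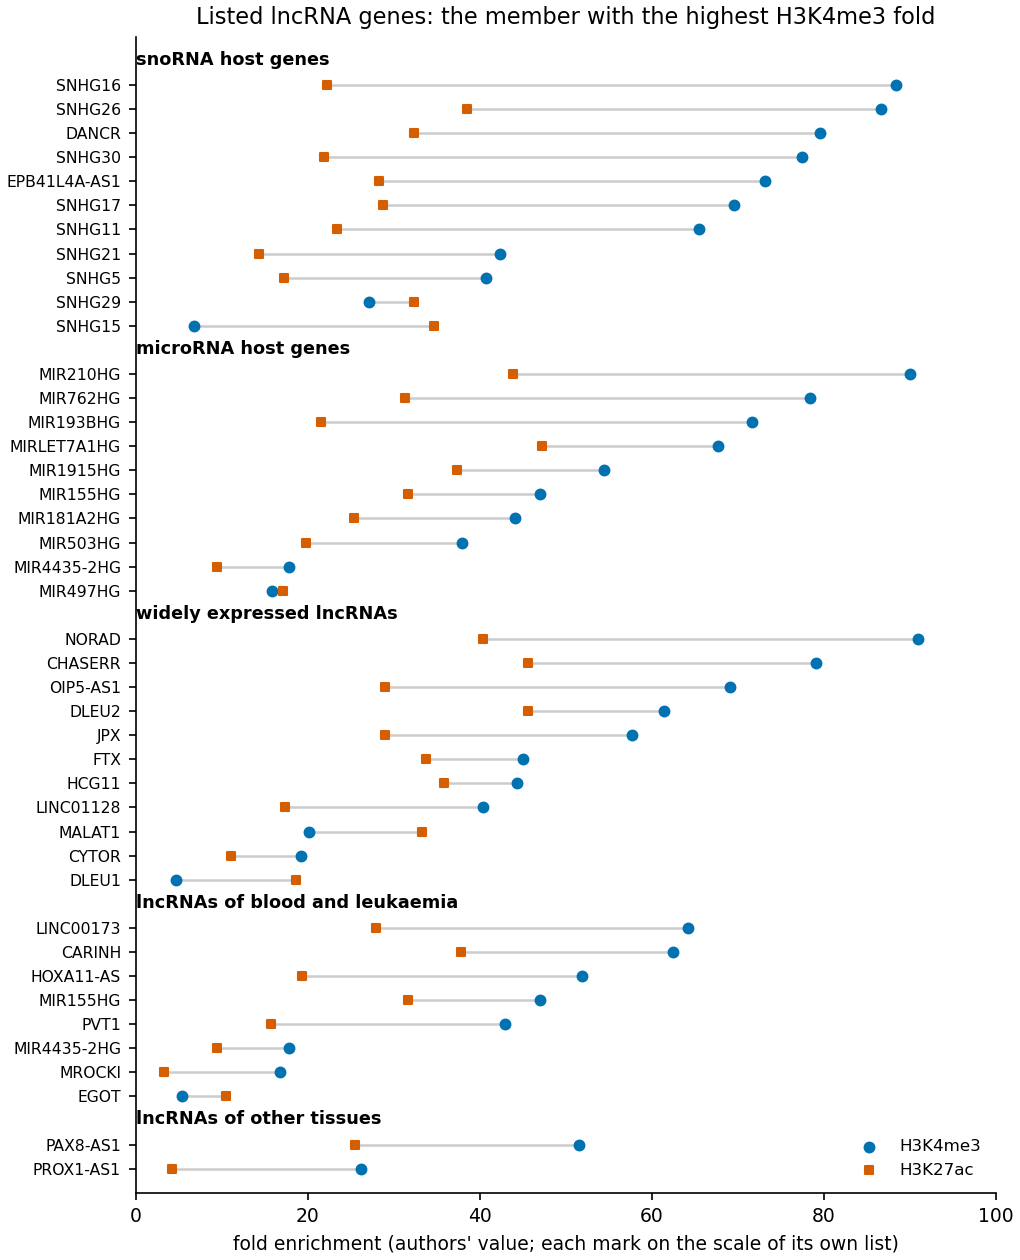
H3K4me3 (circles) and H3K27ac (squares) fold of the member with the highest H3K4me3 fold for each listed gene, by list. The marks are on the scale of their own lists; NORAD (90.9) and MIR210HG (90.0) lead for H3K4me3, and MIRLET7A1HG (47.2) for H3K27ac.

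Antisense genes named after a coding partner gave 236 genes of the set with that partner in the table. The partner itself had both marks at an end for 138 of them (58.5%, 52.1 to 64.6), beside 1162 of all 2001 antisense genes (58.1%). For antisense genes without H3K4me3 at an end the partner had both marks in 446 of 1062 (42.0%, 39.1 to 45). Where the partner had both marks and no protein-coding start lay in the antisense peak, the antisense H3K4me3 fold was below that of the partner in 88 of 108 pairs, with medians of 18.3 and 62.9. Where such a start lay in the peak, the antisense fold was below in 15 of 30, with medians of 63.6 and 59.1. Starts were available for 15812 of 19974 protein-coding genes, so some of the 108 peaks may hold a start that was not seen. The antisense peak lay inside the partner gene for 177 of 236, at a median of 14465 bp from the nearest partner end.

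Where a peak held exactly 1 lncRNA start and no other, the H3K4me3 summit lay upstream of the start more often than at coding genes. In 405 such peaks the H3K4me3 summit lay at a median of 125 bp downstream of the start (85 to 159), and in 4210 protein-coding peaks at 249 bp (243 to 255). It was downstream in 258 of 405 (63.7%, 58.9 to 68.2) against 3879 of 4210 (92.1%, 91.3 to 92.9). The H3K27ac summit lay at a median of 135 bp, downstream in 61.0% (56.2 to 65.6), against 183 bp and 79.5% (78.2 to 80.6) at coding starts. H3K4me3 reached a median of 792 bp into the lncRNA gene and 536 bp upstream, against 1646 and 676 bp at coding genes. The summit lay within 500 bp of the start in 85.7% of the lncRNA peaks and 86.7% of the protein-coding peaks. How exact the annotated starts are was not measured.

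**Figure D4:**
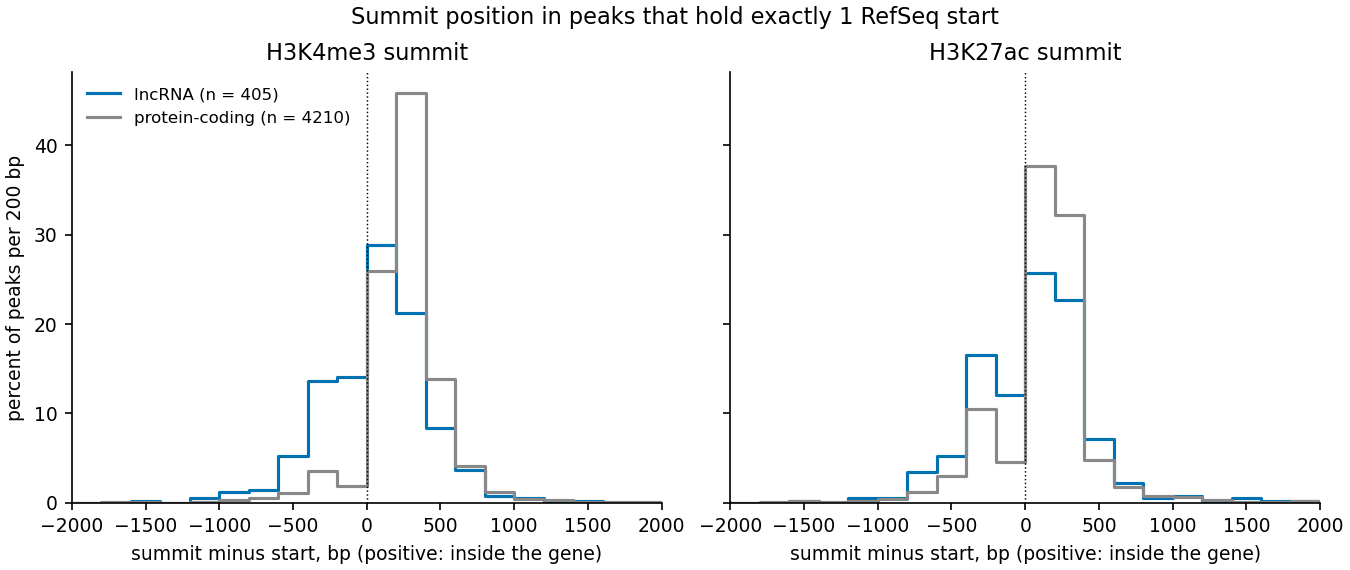
Distance of the H3K4me3 summit (left) and of the strongest H3K27ac summit (right) from the annotated start, in percent of peaks per 200 bp, for 405 lncRNA and 4210 protein-coding peaks with exactly 1 start. The H3K4me3 summit lay upstream of the start more often at lncRNA genes, where 63.7% were downstream, than at coding genes with 92.1%.

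The promoter sequences inside the peaks were rich in CpG, and more so where H3K4me3 was higher. CpG content is given as the ratio of observed to expected CpG, which is low in most of the genome because methylated CpG is lost over time. Over 689 distinct sequences of 630 genes the median ratio was 0.708 (0.678 to 0.734), against 0.215 (0.210 to 0.219) over 9199 lncRNA starts without H3K4me3 within 1 kb and 0.850 (0.845 to 0.853) over 8096 starts in the protein-coding peaks. Without peaks that also held a protein-coding start it was 0.650 (0.623 to 0.697). Quartiles of H3K4me3 fold were taken here among the 602 peaks with a lncRNA start, with folds of 2.96 to 19.5 in the lowest and 61.9 to 96.5 in the highest. From the lowest to the highest of these quartiles the ratio was 0.361, 0.742, 0.766 and 0.842. Peaks whose starts had a ratio of at least 0.6 (374) had a median H3K4me3 fold of 54.7 (52.3 to 58.1) and an H3K27ac fold of 19, and the other 228 had 17.2 (14.2 to 21.2) and 13.4. Across these 602 peaks rho with the CpG ratio was 0.544 for H3K4me3 fold and 0.203 for H3K27ac fold. The points share 1 library per mark, and how base composition affects the sequencing of each peak was not measured.

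The motif content of these sequences differed between the sets and along the same H3K4me3 quartiles of peaks with a lncRNA start. The GC box (GGGCGG), bound by SP1 and its relatives, was found on either strand in 55.7% of the sequences (52.0 to 59.4), against 12% at unmarked lncRNA starts, 74.1% at the protein-coding peaks and 45% over all promoters. The TATA core was found in 6.10% (4.54 to 8.14), against 18.9% at unmarked lncRNA starts, 4.57% at protein-coding peaks and 11.6% over all. The ETS letters were found in 4.93%, against 0.772%, 9.60% and 4.13%, and the YY1 letters in 1.60%, against 1.34%, 5.79% and 2.89%, in the same order. The motifs of blood factors went the other way within the set. PU.1 letters were found in 9.20% (5.66 to 14.6) of sequences in the lowest H3K4me3 quartile and 2.29% (0.892 to 5.73) in the highest, beside 2.60% over all promoters. RUNX letters (TGTGGT) were found in 20.9% (15.3 to 27.7) and 4.57% (2.33 to 8.76), beside 13.1%, and GATA letters (AGATAA) in 14.7% and 5.71%, beside 10.4%. The GC box rose from 30.7% to 66.3% over the same quartiles. The median GC content went from 52.3% to 68.0% over these quartiles, and its part in the motif shares was not tested. The PU.1 and ETS letters share the core GGAAGT and differ in the bases before it, so no core was counted for both.

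**Figure D5:**
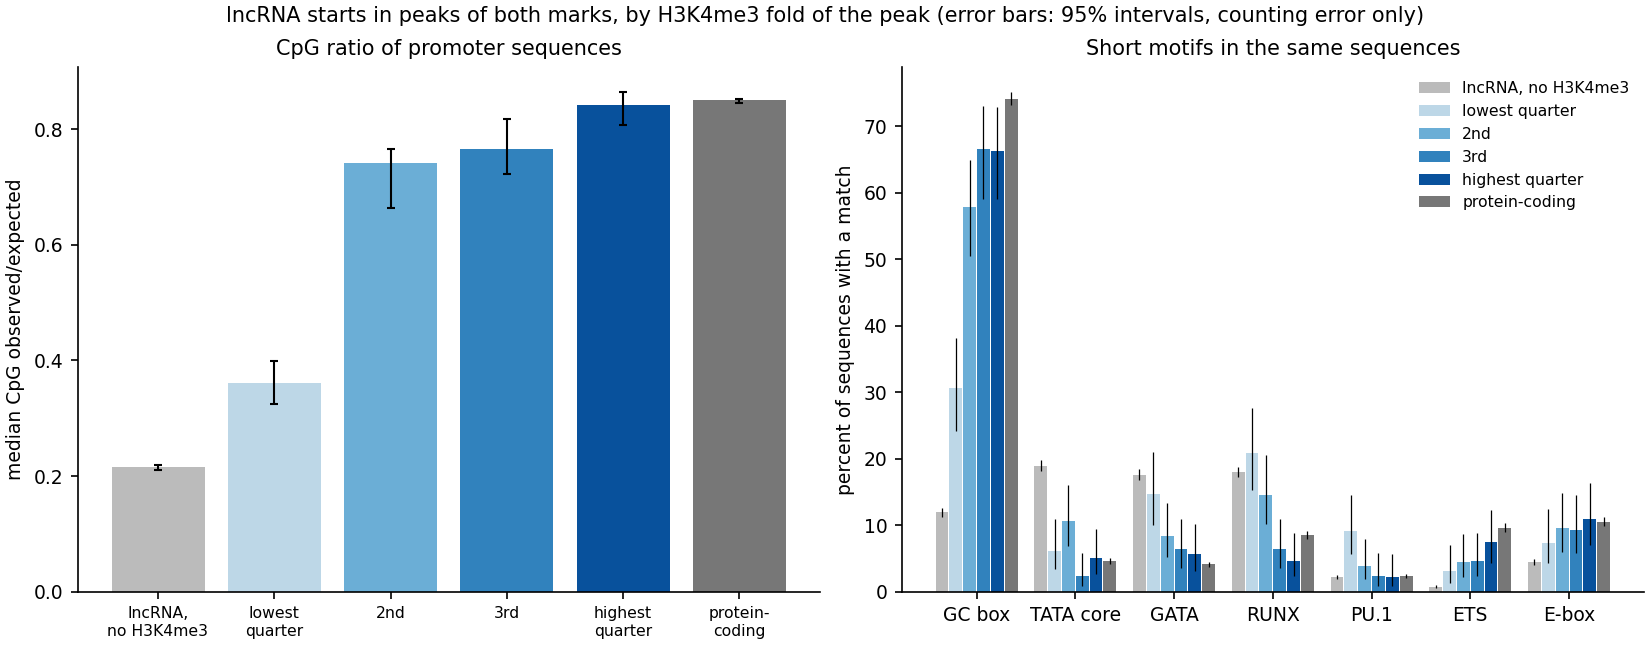
Left, the median ratio of observed to expected CpG. Right, the percent of promoter sequences with a match to 7 short motifs. Sets are unmarked lncRNA starts, lncRNA starts in the peaks, and protein-coding starts. Quartiles of H3K4me3 fold are those of the peaks with a lncRNA start. Bars start at 0 and carry 95% intervals; the CpG ratio goes from 0.361 in the lowest quartile to 0.842 in the highest.

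Along the genome the peaks were spread over all 23 chromosomes analysed. The share of lncRNA genes with a peak of the set was lowest on chromosome 4 (4.44%, 3.32 to 5.90) and highest on chromosomes 19 (12.5%, 9.84 to 15.7) and 17 (12%, 9.80 to 14.6). On chromosome 8, of which KBM7 is known to keep a second copy, 60 peaks had an expected H3K4me3 background of 4.98 fragments against 2.55 on chromosomes other than 8 and 15. Their median fold was 20.5 (7.07 to 35.5) from 110 fragments, and that of the other chromosomes 17.1 from 61.5. Of the genes 1171 had 1 peak of the set, 193 had 2, 31 had 3 and 5 had 4. The 5 genes with 4 peaks were LINC01366, LINC02971 with the overlapping LNCATV, LOC105369704 and PPM1F-AS1, and in none of them did a peak exceed an H3K4me3 fold of 16.4, while H3K27ac folds were 18.4 to 38.4. Outside protein-coding genes the median distance to the nearest one was 20.4 kb. Farthest away, at 1409.8 kb, was a peak of 4548 bp shared by LINC00662 and LINC02987 on chromosome 19 (49.2 and 27.9), with a lncRNA start inside. LOC124900623 (14.1 and 22.3), LOC124903399 (42.2 and 25), LINC02055 (31.5 and 9.45) and LOC102723724 with LOC124901413 (51.3 and 17.0) followed.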

How the data were processed

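The deposited data used here are 1 peak list for H3K4me3 and 1 for H3K27ac, each from 1 library, and 1 table of super-enhancers. The submitters' processing notes name Bowtie2 2.3.4, bedtools 2.20.1 and hg38. Which peak caller was run was not given in the sources used here, nor with what settings. The authors give each peak a fold enrichment (a ratio) at its summit and the −log10 of a p-value and a q-value. The deposited lists hold q-values down to a −log10 of 1.33 (H3K4me3) and 1.32 (H3K27ac). The fold and −log10 p of every peak fit a whole-number count of fragments and an expected background within 0.01, which gave the fragments printed. The depth of each library is unknown from these files, and the deposited intervals of the super-enhancers were used only to leave peaks out.

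Gene ends came from the RefSeq table of GRCh38.p14, and strands, starts, promoter sequences and microRNAs from RefSeq tables of that assembly. These held a start for 11383 lncRNA genes and 15812 protein-coding genes. Other starts, including those of chromosome 8, were not used here. Python 3.11.15, pandas 2.3.3, numpy 2.4.6 and scipy 1.17.1 were used. Overlaps needed 1 bp. Shares have 95% Wilson intervals and medians 95% order-statistic intervals, for counting error only. The overlap and interval code was tested on simulated data. Of the alternatives tried, 13 were planned and 2 were added after seeing the data.

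The regions, the gene lists and the motifs were chosen with earlier results of these data known. The genes named are the 10 highest peaks for each mark, the 5 lowest, the 5 widest and 5 just outside, the 5 genes with most peaks, the 5 largest percentile differences each way, the 5 farthest from a protein-coding gene, and every listed gene with a peak of the set. Other names are examples. A marker gene of another cell type is not reported here.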

Additional observations from a re-analysis of the deposited data

Results flagged for a closer look

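Outside the chromosomes analysed, 26 of 45 H3K4me3 peaks on 16 unplaced or unlocalised sequences overlapped an H3K27ac peak. On the analysed chromosomes 83.8% of H3K4me3 peaks did, so the count is flagged as data left out and not as an excess. The median fold of the 26 peaks was 12 and the highest 49.3. These sequences entered none of the comparisons, and their genes were not analysed here.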

How the results depend on the processing

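The 9 summary values (number of peaks and of genes, median folds and width, share of lncRNA genes with both marks, the 2 ratios of medians to protein-coding ends and the CpG ratio) were recomputed under 15 alternatives. The ratios to protein-coding ends stayed below 1 in 32 of 32 values. The share of lncRNA genes with both marks does not use the limits on gene bodies, super-enhancers, width, stronger neighbours or starts, so its value under those settings is fixed and shows nothing about stability. Without a width limit and without chromosomes 8 and 15 every value stayed within the 95% interval, or for counts within 1.5 times, of the reported one. Values outside these bounds are given here, and beyond the fewer or more peaks that each setting admits by construction the cause was not tested. With 1 library per mark no library can be left out. No paired analysis was possible because each mark has 1 library.

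Windows of 500 bp gave median H3K4me3 and H3K27ac folds of 23.2 and 14.2, a width of 1209 bp, a share of 20.3% and an H3K4me3 ratio of 0.379. Windows of 2 kb gave an H3K4me3 fold of 11.8, a width of 838 bp, a share of 23.7% and a ratio of 0.202. With 50% of the peak covered by H3K27ac the H3K27ac fold was 14.4 and the share 20.1%. With an H3K27ac summit inside the peak the H3K4me3 fold was 24.9, the width 1252 bp, the share 21.0% and the H3K4me3 ratio 0.407. The stronger 50% of H3K4me3 peaks left 959 peaks, with folds of 41.1 and 16.9, a width of 1704 bp, a share of 19.3%, ratios of 0.653 and 0.784 and a CpG ratio of 0.744. The stronger 50% of H3K27ac peaks gave folds of 19.4 and 14.5, a width of 1129 bp, a share of 20.9% and an H3K27ac ratio of 0.687. A −log10 q of at least 5 gave folds of 22 and 14.3, a width of 1194 bp, a share of 21.0% and an H3K4me3 ratio of 0.360. Leaving out protein-coding gene bodies left 938 peaks at 878 genes, with a width of 948 bp and a CpG ratio of 0.671. With super-enhancers kept the folds were 15.1 and 14.5 and the H3K27ac ratio 0.701. Genes without a LOC number left 698 peaks at 617 genes, with folds of 28.7 and 15.8, a width of 1391.5 bp, a share of 33.4% and ratios of 0.473 and 0.760. Windows at 5′ ends only, for both kinds of gene, gave 1044 peaks with folds of 39.0 and 16.0 and a width of 1556 bp. The share was 23.9% and the ratios were 0.618 and 0.741. Peaks at protein-coding 3′ ends, or at protein-coding genes of unknown strand, were not left out under this setting. Of the 2 alternatives chosen after seeing the data, leaving out peaks beside a stronger H3K4me3 peak gave an H3K4me3 fold of 27.9, a width of 1321 bp and a ratio of 0.439. Requiring a start of the gene's own kind, and no protein-coding start at lncRNA ends, left 465 peaks at 523 genes, with folds of 38.6 and 15.3, a width of 1555 bp, an H3K4me3 ratio of 0.588 and a CpG ratio of 0.650.

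Depth limits the weak peaks most: the lowest member had 10 H3K4me3 fragments at its summit and the median member 63.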
